A study of Homo sapiens with 12 samples.

Results

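HEK293T cells that carried MLL-AF4 throughout were compared before (d0) and after (d3) a pulse of the reciprocal fusion protein AF4-MLL. Members were chosen by their labels, which left 6 of the 12 samples of the series, 3 at d0 and 3 at d3. Of 52889 gene entries, 14113 had a mean raw count of at least 10 over these samples once 37 mitochondrially encoded genes and 412 nuclear copies of such genes had been set aside. HEK293T is a human embryonic kidney line. The d0 cells were stably transfected with the constitutive vector pSBbi::MLL-AF4 and selected with puromycin. The d3 cells were the same cells after transient transfection with pSBTet::AF4-MLL, blasticidin, and doxycycline at 1 µg/ml for 48 h. By the study's methods the d0 cells had none of these, although the labels list the doxycycline treatment for every sample. AF4-MLL, the transfection, blasticidin and doxycycline cannot be told apart here. Samples of d28, taken after AF4-MLL had been shut down, and of Mock cells with the empty vector pSBTet-GP are given only beside the values at d0 and d3.

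The t(4;11) translocation joins KMT2A, also called MLL, which encodes a histone H3 lysine 4 methyltransferase, to AFF1, also called AF4, a scaffold of the super elongation complex that releases paused RNA polymerase II. Each of the reciprocal products keeps different domains, and AF4-MLL holds the methyltransferase domain of MLL together with the N-terminus of AF4. ATAC-Seq uses a transposase that cuts accessible DNA in nuclei and marks it for sequencing, and the deposited values are reads counted per gene entry. Such a count grows with the openness of a locus and also with the number of copies of that locus in the cells, and the table cannot tell these apart.

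Nuclear counts lay between 325159 and 369221 per sample at d0 and between 552178 and 613949 at d3. The groups did not overlap (two-sided exact permutation test, p = 0.1, the smallest that 3 samples against 3 allow, adjusted p = 0.133 over 4 values of this kind). Mitochondrially encoded genes took 44.0% ± 1.83 (SD, n = 3) of all counts at d0 and 39.4% ± 5.94 (SD, n = 3) at d3, and these ranges overlapped (exact permutation test, p = 0.2). A tested gene had a median of 23.2 raw reads per sample, and precision was therefore low for single genes. None of the 14 HEK293T markers was called, against 0.964% of all tested genes called higher and 0.978% lower. Of 12 blood cell markers, 4 reached the count minimum.

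At d3, 136 genes were higher and 138 genes were lower than at d0 (edgeR's quasi-likelihood test, adjusted p below 0.05), which is 0.964% and 0.978% of the genes tested. Their log2 fold changes ran from 0.49 to 2.98 among the higher genes, with a median of 0.93, and from -1.65 to -0.38 among the lower genes, with a median of -0.85. At least a 2-fold difference was reached by 55 higher and 47 lower genes. All 3 values at d3 lay above all 3 at d0 in 132 of the 136 higher genes and below them in 130 of the 138 lower genes. Over all tested genes the same held for 10% in the upward and 9.83% in the downward direction. The calls were sensitive to single libraries. The fit called 42 higher and 48 lower genes without d0 replicate 1, and 34 and 39 without d0 replicate 2. It called 63 and 89 without d0 replicate 3, and 90 and 76 without d3 replicate 3. Only 14 of the 136 higher and 20 of the 138 lower genes kept their call with each sample left out in turn. DESeq2, which the study's methods name for its expression data, called 13 higher and 23 lower genes, all 36 of which were among the 274 genes above. The count minimum was set on the mean of all 6 samples. Of the 136 higher genes, 36 passed it only through d3, with a mean raw count under 10 at d0. Of the 138 lower genes, 10 passed it only through d0. Among all 14113 tested genes, 2147 had a mean raw count under 10 at d0 and 27 at d3.

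Neighbouring genes had like differences along whole stretches of chromosomes. Counts were therefore summed over 256 blocks of 50 neighbouring tested genes (the last block of a chromosome may hold more or fewer), placed with RefSeq coordinates of GRCh38.p14. Of these blocks, 72 were higher (28.1%) and 94 were lower (36.7%) at d3 by the same edgeR test, and 57 and 79 of them kept their call with each sample left out in turn. The called genes followed their blocks. Among the 136 higher genes, 110 lay in a block called higher and 2 in a block called lower, and among the 138 lower genes 100 lay in a block called lower and 3 in a block called higher. Of all 14113 tested genes, 3568 lay in blocks called higher and 4731 in blocks called lower. A gene is itself part of its block's sum, so these counts are a description.

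**Figure D1:**
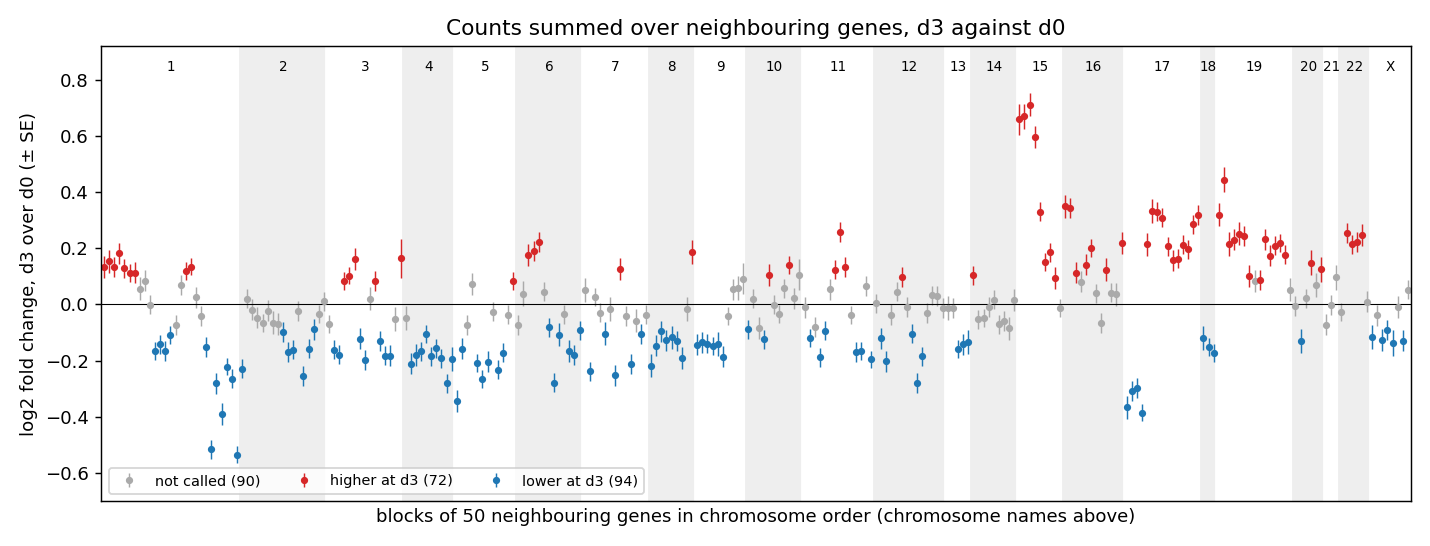
Log2 fold change (d3 over d0, ± SE) of counts summed over 256 blocks of neighbouring genes, in chromosome order, with blocks called higher in red (72), called lower in blue (94) and not called in grey (90). The first blocks of chromosome 15 reach 0.71, the last block of chromosome 1 lies at -0.53, and chromosome 17 changes sign after its first 4 blocks.

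Chromosome 15 held the strongest rise, and 46 of the 136 higher genes lay on it against 1 of the lower genes. That was 9.89% and 0.215% of its 465 tested genes, against 0.964% and 0.978% of all tested genes. Of the counts on tested genes with a RefSeq position, chromosome 15 took 3.12%, 3.16% and 3.23% in the d0 samples and 3.91%, 3.98% and 3.96% in the d3 samples. Its first 5 blocks (chr15:22664739-69272207, 250 tested genes) had summed normalised counts of 4588, 4676 and 4812 at d0 and of 6912, 7153 and 6892 at d3, a ratio of 1.49. A normalised count is the raw count after each library was brought to a common effective size, the average over the 6 samples. The groups lay far apart there, and 236 of the 250 genes (94.4%) had a log2 fold change above 0. In chromosome order these blocks had log2 fold changes of 0.66, 0.67, 0.71, 0.60 and 0.33, the next 3 blocks lay between 0.09 and 0.18, and the last block of the long arm was at -0.01 (SE 0.03). The same 5 blocks had a mean of 5004 ± 99.4 (SD, n = 3) in Mock cells, near d0, and of 7066 ± 20.5 (SD, n = 3) at d28, near d3.

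Genes called on chromosome 15 had many unrelated roles. MAP1A, which encodes a microtubule-associated protein of neurons, had normalised counts of 19.2, 16.1 and 19.99 at d0 and 41.7, 41.4 and 47.4 at d3, a log2 fold change of 1.23 (SE 0.24, adjusted p = 4.2e-04 from edgeR). RPS27L, a ribosomal protein paralogue and p53 target, had 28.2, 23.4 and 26.7 at d0 and 53.9, 59.98 and 48.2 at d3, a log2 fold change of 1.04 (SE 0.21). CCPG1, a receptor for autophagy of the endoplasmic reticulum, rose by 0.99 (log2, SE 0.20). In each of these 3 genes every d3 sample lay above every d0 sample. GALK2, a galactokinase family enzyme, rose by 0.83 (log2, SE 0.18), but its adjusted p was 0.070 without d0 replicate 3. Against their 50 nearest neighbours, none of these 4 genes passed the test (adjusted p of 0.454, 0.448, 0.531 and 0.836 in the order given).

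Chromosome 1 held 40 of the 138 lower genes against 3 of the higher genes. That was 2.95% and 0.221% of its 1356 tested genes, against 0.978% and 0.964% of all tested genes. Of the lower ones, 35 lay in a stretch at the end of its long arm. The last 7 blocks of the chromosome (chr1:169849631-248930191, 356 genes) were all called lower and had summed normalised counts of 12802, 13055 and 12828 at d0 and of 10184, 10071 and 10372 at d3, a ratio of 0.792. Only 63 of the 356 genes (17.7%) had a log2 fold change above 0. Within the stretch the losses were uneven, with log2 fold changes of -0.15, -0.52, -0.28, -0.39, -0.22, -0.26 and -0.53 from the first block to the last. Of the earlier blocks of the same chromosome, the first 7 were all called higher, by 0.11 to 0.18, and 4 consecutive blocks (chr1:63322567-113812476) were called lower, with log2 fold changes between -0.17 and -0.11. Mock cells had 12573 ± 241 (SD, n = 3) over the stretch, and d28 cells had 10267 ± 47.0 (SD, n = 3).

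DESI2, which encodes a deubiquitinase-like peptidase, had the smallest p-value of all genes and lies in the last block of chromosome 1 (chr1:244653126-244709033). Its normalised counts were 155, 139 and 161 at d0 and 94.1, 46.5 and 103 at d3, a log2 fold change of -0.89 (SE 0.14, adjusted p = 2.4e-06 from edgeR). All d3 samples were lower, and d3 replicate 2 lay well below the other two. Without that replicate the log2 fold change was -0.62, and with DESeq2 the adjusted p was 0.173. ADSS, the adenylosuccinate synthetase of purine synthesis, which is in the same block, fell by 0.88 (log2, SE 0.15), from 95.6 ± 15.4 to 52.1 ± 1.19 (SD, n = 3 each). RYR2, the calcium release channel of heart muscle, fell by 1.15 (log2, SE 0.22), and RGS7, a regulator of G protein signalling in neurons, fell by 1.51 (log2, SE 0.28). Their neighbours stood at log2 ratios between -0.56 and -0.53, and none of these 4 genes passed the test against them (adjusted p of 0.320, 0.452, 0.297 and 0.125).

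Chromosome 17 moved in both directions. Its first 4 blocks (chr17:142789-28328685, 200 genes) fell from 6475, 6667 and 6626 at d0 to 5233, 5199 and 5130 at d3, a ratio of 0.787, whereas its other 11 blocks (chr17:28328326-83051770, 565 genes) rose from 16115, 16140 and 16168 to 19666, 19138 and 18659, a ratio of 1.19. All 15 blocks were called, with log2 fold changes between -0.39 and -0.30 in the first stretch and between 0.16 and 0.33 in the second. All 11 lower genes of chromosome 17 lay in the first stretch and all 23 higher genes in the second. They were 1.44% and 3.01% of the 765 tested genes of the chromosome, against 0.978% and 0.964% of all tested genes. Mock cells had 7039 ± 69.3 (SD, n = 3) over the first stretch, above d0, and 18427 ± 275 (SD, n = 3) over the second, nearer to d3 than to d0. At d28 both stretches stood close to d3, at 5282 ± 5.27 and 19109 ± 272 (SD, n = 3 each). SNORD3B-1, a copy of the U3 small nucleolar RNA in the first stretch, fell by 0.67 (log2, SE 0.13), and SNORD3A and SNORD3B-2 were called lower as well. Reads of these near-identical copies may be shared among them, and SNORD3B-1 did not pass against its neighbours (adjusted p = 0.442).

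**Figure D2:**
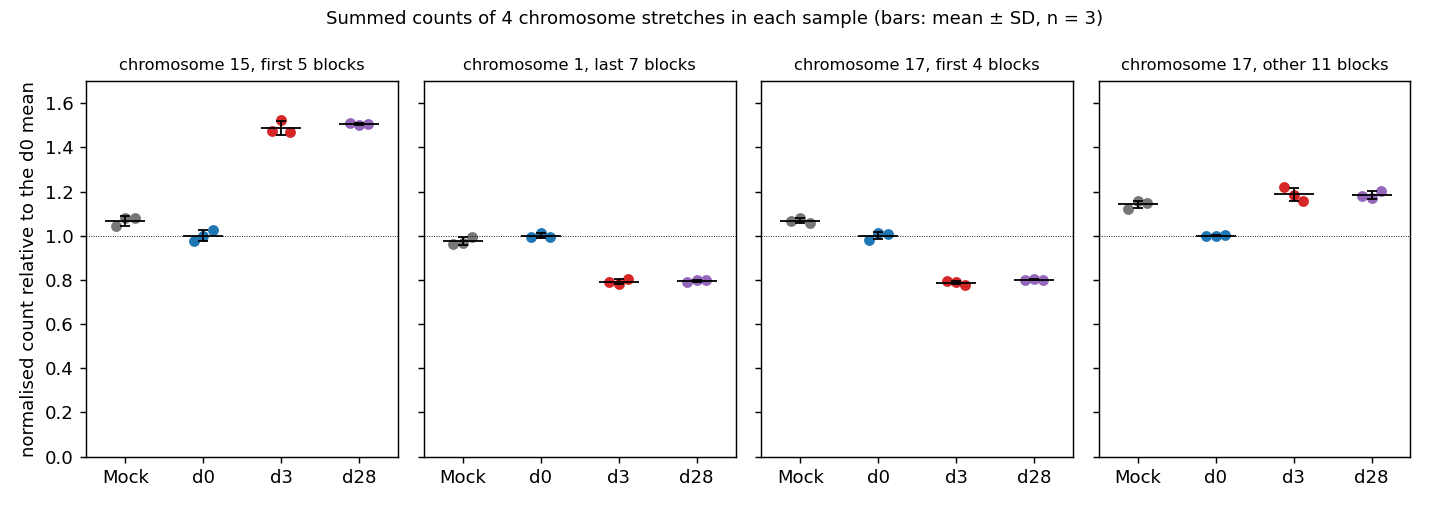
Summed normalised counts of 4 chromosome stretches in all 12 samples, divided by the d0 mean, with the axis starting at 0 (points: samples, bars: mean ± SD, n = 3 per group). The d3 and d28 samples lie together in each panel, while Mock samples lie near d0 on chromosomes 15 and 1, above d0 on the first 4 blocks of chromosome 17, and near d3 on its other blocks.

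In many other called stretches the Mock cells were on the side of d3. Among them were 3 that were called higher, on chromosomes 16, 19 and 22. The first 7 blocks of chromosome 19 (chr19:496486-30016612) were at 8248 ± 139 (SD, n = 3) at d0, 9841 ± 260 at d3 and 9567 ± 97.8 in Mock cells. On chromosome 22, 4 consecutive called blocks (chr22:20965172-41998221) were at 5677 ± 138 at d0, 6681 ± 151 at d3 and 6700 ± 88.7 in Mock cells (SD, n = 3 each). The first 3 blocks of chromosome 16 (chr16:46407-10943021) were at 3867 ± 94.4, 4698 ± 166 and 4643 ± 192 in the same order. In each of these 3 stretches the d0 samples were the lowest of the 3 groups. On chromosome 4 (chr4:5711201-190022665), called lower, d0 was at 13973 ± 52.5, d3 at 12297 ± 122 and Mock at 12376 ± 200 (SD, n = 3 each). The first 7 blocks of chromosome 1 were at 9069 ± 141, 9957 ± 41.1 and 9959 ± 152 in that order. Mock cells were nearer to d0 in other stretches, such as chr6:26956993-36874803, with 3725 ± 81.2, 4274 ± 143 and 3933 ± 83.2. Over the whole genome, 43 of the 64 blocks that spanned the least sequence (0.794 to 4.96 Mb) were called higher and 5 lower. Of the 64 blocks that spanned the most (16.0 to 43.3 Mb), 1 was called higher and 51 lower. Mock samples were not summarised by block length.

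Single genes differed with their length. The median log2 fold change was 0.08 for genes with a RefSeq span under 10 kb, which took 16.8%, 16.6% and 16.7% of nuclear counts at d0 and 17.9%, 17.9% and 17.8% at d3. Genes over 300 kb had a median of -0.16 and took 3.82%, 3.75% and 3.75% at d0 and 3.42%, 3.37% and 3.49% at d3. The d0 and d3 shares did not overlap in either class (exact permutation test, p = 0.1, the smallest possible). Of the 598 genes over 300 kb, 19 were called lower and 1 higher, which is 3.18% and 0.167%, while of the 2710 genes under 10 kb 22 were called lower and 50 higher, 0.812% and 1.85%. The median raw count was 24 in the shortest and 22.5 in the longest class. The median span was 14.98 kb for the higher genes, 41.3 kb for the lower genes and 32.1 kb for all placed genes. The median GC share of their promoters was 64.7%, 65.2% and 65.3% in the same order. Total counts were higher at d3, and the part of depth in the gradient was not tested. Mock samples were not summarised by gene length.

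Because of these shared shifts, each gene was also set against the summed count of its 50 nearest tested neighbours. In that test 18 genes were higher and 33 lower, and 16 and 28 of them were among the 136 and 138 genes of the main comparison. Of the 44 genes called both ways, 30 had a RefSeq position. The others have no known neighbours, and their values stay as they were. The scatter of called genes against their neighbours shows them close to the vertical axis.

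**Figure D3:**
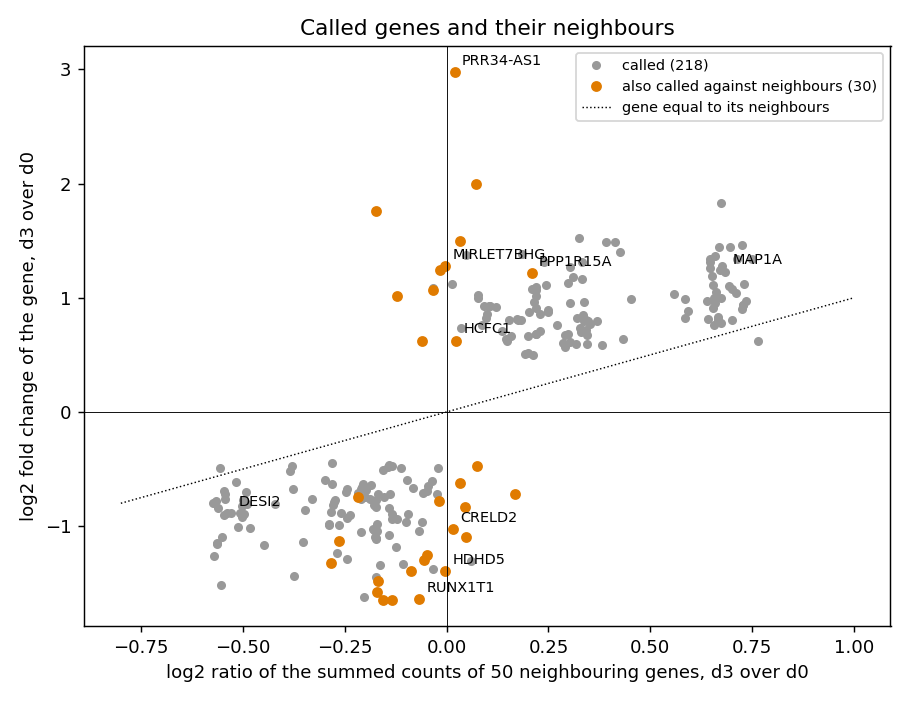
Log2 fold change (d3 over d0) of each called gene with a RefSeq position against the log2 ratio of the summed counts of its 50 neighbours. The 30 genes in orange were also called against their neighbours, the 218 genes in grey were not. The cluster at the right is the chromosome 15 stretch with MAP1A, whereas PRR34-AS1, MIRLET7BHG, CRELD2 and HDHD5 have neighbours near 0.

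The largest fold change of all called genes was that of PRR34-AS1, a long non-coding RNA on chromosome 22 (chr22:46053846-46058522). It had raw counts of 3, 2 and 1 at d0 and 34, 25 and 25 at d3, or normalised counts of 3.85, 2.93 and 1.33 and of 25.8, 21.1 and 19.4. Every d3 sample was several times higher than every d0 sample, and the gene passed the count minimum only through d3, since its mean raw count was 2 at d0. The log2 fold change was 2.98 (SE 0.47, adjusted p = 2.5e-06 from edgeR), and the ratio of summed counts was 8.18, with an exact 95% interval from 3.61 to 22.9 that covers counting error only. The mean was 4.74 ± 1.38 (SD, n = 3) in Mock cells and 19.5 ± 2.97 (SD, n = 3) at d28. The gene's neighbours had a log2 ratio of 0.02.

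MIRLET7BHG, the host transcript of let-7 microRNAs, lies next to it (chr22:46085997-46113928). Its normalised counts were 14.1, 13.2 and 24.0 at d0 and 41.7, 37.2 and 45.9 at d3, a log2 fold change of 1.27 (SE 0.25, adjusted p = 4.2e-04 from edgeR, 8.4e-04 against its neighbours). The d3 samples were all higher, and the level stood at 22.6 ± 4.70 (SD, n = 3) in Mock cells and 40.0 ± 1.44 (SD, n = 3) at d28. The locus encodes let-7a and let-7b, microRNAs that repress growth and stem cell genes. Their mature forms, taken from RefSeq (GRCh38.p14, plus strand), are shown because they share 1 seed, bases 2 to 8, written in capitals. The counts are those of the host gene's DNA and do not measure the microRNAs.
hsa-let-7a-5p, chr22:46112752-46112773: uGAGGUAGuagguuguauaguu
hsa-let-7b-5p, chr22:46113691-46113712: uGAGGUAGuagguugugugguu

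PPP1R15A, also called GADD34, encodes the phosphatase subunit that removes the phosphate from eIF2α and so ends the integrated stress response. It had normalised counts of 15.4, 29.3 and 16.0 at d0 and 53.1, 42.3 and 43.5 at d3, a log2 fold change of 1.22 (SE 0.24, adjusted p = 3.0e-04 from edgeR, 0.014 against its neighbours). The groups did not overlap, and Mock cells were at 38.4 ± 5.99 (SD, n = 3), close to d3, with d28 at 23.01 ± 0.775 (SD, n = 3). Of the 16 tested genes of the integrated stress response it was the only one called (6.25%, against 0.964% of all genes called higher). The list's median log2 fold change was -0.02 against -0.01 for all genes. ATF4, the transcription factor of that response, had 0.43 (SE 0.18, adjusted p = 0.205), and ATF3 had -0.61 (SE 0.21, adjusted p = 0.110).

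CRELD2, a chaperone-like protein of the endoplasmic reticulum that is induced when proteins misfold, moved the other way. Its normalised counts were 56.5, 51.2 and 52.0 at d0 and 28.8, 18.6 and 30.3 at d3, a log2 fold change of -1.03 (SE 0.21, adjusted p = 6.2e-04 from edgeR, 9.7e-04 against its neighbours). All d3 samples were lower, and Mock cells were at 44.0 ± 10.4 (SD, n = 3). All 27 genes of the unfolded protein response were tested. Of these, 1 was higher and 1 lower (3.7% each, against 0.964% and 0.978% of all genes). The higher one, PDIA3, a disulfide isomerase on chromosome 15, had 7.16 ± 3.20 at d0 and 18.5 ± 1.32 at d3 (SD, n = 3 each). It passed the count minimum only through d3, with a mean raw count of 5.33 at d0, and its call was lost without any one of the d0 replicates 1 and 2 and the d3 replicates 1, 2 and 3 (adjusted p up to 0.216). PDIA3 did not pass against its neighbours, which stood at a log2 ratio of 0.75 (adjusted p = 0.659 from edgeR). HSPA5, the main chaperone of the endoplasmic reticulum, had a log2 fold change of 0.43 (SE 0.14, adjusted p = 0.075), and XBP1 had 0.65 (SE 0.26, adjusted p = 0.179).

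The promoters of these stress genes are shown since the pair moved in opposite directions. Each is the RefSeq window from 250 bases before to 50 bases after the start of the gene (GRCh38.p14, plus strand). Capitals in PPP1R15A mark TGACG and its palindrome TGACGTCA, the core of sites bound by ATF and CREB factors. Capitals in CRELD2 mark the outer letters of the endoplasmic reticulum stress element, here on the opposite strand, and TGACG, which also lies on the opposite strand.
PPP1R15A, chr19:48872171-48872470: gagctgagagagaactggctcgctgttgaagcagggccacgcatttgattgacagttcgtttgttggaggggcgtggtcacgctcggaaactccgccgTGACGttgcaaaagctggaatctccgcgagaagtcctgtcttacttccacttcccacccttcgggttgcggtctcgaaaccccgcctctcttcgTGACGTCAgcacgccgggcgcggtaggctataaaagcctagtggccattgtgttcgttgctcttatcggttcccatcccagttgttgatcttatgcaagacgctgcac
CRELD2, chr22:49918384-49918683: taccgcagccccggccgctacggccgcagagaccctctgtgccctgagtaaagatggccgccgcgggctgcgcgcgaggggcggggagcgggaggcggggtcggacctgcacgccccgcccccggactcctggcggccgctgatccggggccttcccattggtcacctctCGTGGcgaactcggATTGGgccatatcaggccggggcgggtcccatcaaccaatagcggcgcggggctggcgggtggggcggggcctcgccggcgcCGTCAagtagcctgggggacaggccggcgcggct

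On both strands, TGACG was found in 24.6% of 35116 promoter windows of this length, TGACGTCA in 1.85%, and the stress element in 27 windows (0.0769%). A match describes the sequence and is no evidence of binding. Of the 16 tested genes with the stress element, CRELD2 was the only one called, and their median log2 fold change was -0.07. Among the others were HSPA5 and XBP1 with the values above, CALR at 0.37 (SE 0.24, adjusted p = 0.502) and HSP90B1 at -0.02 (SE 0.16, adjusted p = 0.976). Of the 376 tested genes with TGACGTCA, 6 were higher (1.6%) and 4 lower (1.06%), against 0.975% and 1% of the 9951 tested genes with a promoter window.

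RUNX1T1, a corepressor also known as ETO and a fusion partner in another leukaemia, was the gene with the smallest p-value among 28 tested leukaemia targets of MLL fusions. Its normalised counts were 48.8, 32.2 and 25.3 at d0 and 15.9, 6.76 and 10.9 at d3, a log2 fold change of -1.64 (SE 0.28, adjusted p = 4.0e-05 from edgeR, 1.2e-04 against its neighbours). The groups did not overlap, and the level was 30.7 in Mock cells and 13.2 at d28. ZEB2, a zinc finger repressor, fell from 182 ± 8.18 to 131 ± 13.5 (SD, n = 3 each), by 0.48 (log2, SE 0.12). ADAM10, a membrane protease on chromosome 15, rose by 0.82 (log2, SE 0.21). In Mock cells ZEB2 was at 98.5 ± 2.20 (SD, n = 3), below d3, and ADAM10 was at 25.3 ± 8.26 (SD, n = 3), near d0. ZEB2 lost its call without d0 replicate 1, d0 replicate 2 or d3 replicate 1, with an adjusted p of up to 0.146, and ADAM10 without d0 replicate 1, d0 replicate 3 or d3 replicate 2, with up to 0.175. Neither passed against its neighbours (adjusted p of 0.307 for ZEB2 and 0.788 for ADAM10). Of the 28 genes, 3.57% were called higher and 7.14% lower, against 0.964% and 0.978% of all tested genes. The list's median log2 fold change was -0.12, and 9 of the 28 genes had a value above 0, against 49.2% of all tested genes. Gene span was not taken into account, and medians went from 0.08 under 10 kb to -0.16 over 300 kb. FLT3, PROM1, MYB and ERG had under 10 reads per sample on average and were not tested.

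KMT2A and AFF1, the genes joined by the translocation, were not called. KMT2A had normalised counts of 46.2, 45.3 and 32.0 at d0 and 53.9, 60.8 and 65.3 at d3, a log2 fold change of 0.54 (SE 0.18, adjusted p = 0.095 from edgeR). The d3 samples were all higher, and KMT2A was at 30.7 in Mock cells and 77.8 at d28. AFF1 had 64.2, 81.9 and 68.0 at d0 and 62.2, 53.2 and 64.5 at d3, a log2 fold change of -0.24 (SE 0.16, adjusted p = 0.517). The vectors carry parts of both genes, and vector reads cannot be separated from those of the chromosomal loci. These counts therefore do not check the induction of AF4-MLL.

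Among 19 tested genes of MLL complexes, only HCFC1 was called (5.26%, against 0.964% of all genes called higher). A single call in lists this small says little about the list. HCFC1, a host cell factor, binds the MLL and SET1 enzymes. It had normalised counts of 70.6, 71.7 and 64.0 at d0 and 94.9, 105 and 118 at d3, a log2 fold change of 0.62 (SE 0.15, adjusted p = 0.0068 from edgeR, 0.032 against its neighbours). The groups did not overlap, but the call was lost without d0 replicate 1, d0 replicate 3 or d3 replicate 3 (adjusted p up to 0.066). Of 18 tested genes of the super elongation complex and DOT1L, 1 was called, ELL2 (5.56%, against 0.978% of all genes called lower). ELL2, an elongation factor, was lower by 0.77 (log2, SE 0.17), with 73.6 ± 8.68 at d0 and 43.0 ± 7.26 at d3 (SD, n = 3 each). ELL2 stood at 50.2 ± 1.60 in Mock cells and 50.1 ± 5.97 at d28 (SD, n = 3 each), nearer to d3 than to d0. Its adjusted p from edgeR was 0.068 without d0 replicate 1. Of 27 Polycomb genes, 1 was called, CBX8 (3.7%, against 0.964% of all genes called higher). CBX8, a subunit that reads methylated histone H3 lysine 27, was higher by 0.76 (log2, SE 0.20). Its call was lost without d0 replicate 2 or d0 replicate 3 (adjusted p up to 0.164 from edgeR). ELL2 and CBX8 did not pass against their neighbours (adjusted p of 0.244 and 0.371). HCFC1 at 77.4 ± 14.5 and CBX8 at 43.1 ± 1.58 in Mock cells (SD, n = 3 each) were nearer to d0 than to d3.

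No HOX gene was called, against 0.964% of all tested genes called higher and 0.978% lower. In the HOXA cluster, 12 genes were tested with a median log2 fold change of -0.09, and HOTTIP, a long non-coding RNA at its end, had the smallest p-value with 0.83 (SE 0.28, adjusted p = 0.084). In the other HOX clusters 22 genes were tested with a median of 0.18, and HOXB13 had the smallest p-value with 0.79 (SE 0.29, adjusted p = 0.122). Among 22 immediate early genes KLF4, a pluripotency factor, was lower by 0.89 (log2, SE 0.25), with 34.6, 35.1 and 34.7 at d0 and 21.3, 18.6 and 16.3 at d3. Its groups did not overlap, yet its call held only without d3 replicate 1 among the 6 samples left out in turn. The call was lost without each of the others (adjusted p up to 0.143). KLF4 did not pass against its neighbours either (adjusted p = 0.362 from edgeR).

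No gene was called among 15 of the heat shock response, 13 of interferon and nucleic acid sensing, and 20 p53 targets. Nor was any called among 31 of the cell cycle and replication and 30 of mitochondrial translation and respiration. Of all tested genes, 0.964% were called higher and 0.978% lower. The members with the smallest p-values were HSPA1B, a heat shock chaperone, at 0.59 (SE 0.19, adjusted p = 0.077), IRF7 at 0.62 (SE 0.31, adjusted p = 0.333), GADD45B at 0.65 (SE 0.30, adjusted p = 0.273), MCM7, a subunit of the replicative helicase, at 0.42 (SE 0.15, adjusted p = 0.125), and SDHA, a subunit of succinate dehydrogenase, at -0.75 (SE 0.28, adjusted p = 0.143). In the marker lists these were GATA2 at 0.42 (SE 0.22, adjusted p = 0.334) and CD34 at -0.13 (SE 0.32, adjusted p = 0.902). These are log2 fold changes from the same edgeR test.

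Of 79 tested genes for ribosomal proteins, 5 were called higher (6.33%, against 0.964% of all genes) and none lower. A log2 fold change above 0 was found in 65 of them (82.3%, against 49.2% of all genes), and their median was 0.28 against -0.01. Gene span was not taken into account here, and all tested genes under 10 kb had a median of 0.08. The called genes were RPL39 (1.25), RPS27L (1.04), RPS19 (0.80), RPL36 (0.68) and RPL13 (0.50), and they lie on chromosomes X, 15, 19, 19 and 16. Of these, RPL39 alone was also called against its neighbours, and it passed the count minimum only through d3. Of 43 tested replication-dependent histone genes, 1 was higher (2.33%), and their median was 0.22. Long intergenic RNA genes had a median of -0.08, with 3 of 160 lower (1.88%) and none higher. Protein-coding genes had 116 higher (0.983%) and 110 lower (0.933%) among 11796, close to the shares of all tested genes (0.964% and 0.978%). The study's MACE-Seq table lists genes as increased at d3 against Mock cells, and 87 of them were tested. Of these, GNRH1 was higher and MIR6723 lower here (1.15% each). MALAT1 and NEAT1, nuclear long non-coding RNAs that lie next to each other on chromosome 11, were both higher, by 0.91 (log2, SE 0.19) and 0.71 (log2, SE 0.16), and NEAT1 had an adjusted p of 0.054 without d0 replicate 1. Neither passed against its neighbours (adjusted p of 0.085 for MALAT1 and 0.225 for NEAT1).

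Other lower genes, which also passed against their neighbours, had known roles in several processes. PRDM9, the histone methyltransferase that sets recombination sites in meiosis, had 231, 233 and 193 at d0 and 125, 142 and 125 at d3, a log2 fold change of -0.74 (SE 0.12, adjusted p = 5.6e-06 from edgeR, 0.014 against its neighbours). HDHD5, a protein of the haloacid dehalogenase family, had 43.6, 42.4 and 37.3 at d0 and 15.9, 14.4 and 16.3 at d3, a log2 fold change of -1.39 (SE 0.25). TMEFF2, a transmembrane protein with follistatin domains, fell by 1.13 (log2, SE 0.21), and COQ6, a monooxygenase of coenzyme Q synthesis, fell by 0.78 (log2, SE 0.15). In each of these 4 genes no d3 sample reached the lowest d0 sample. The pseudogene ZSWIM5P3 fell by 1.58 (log2, SE 0.30). The clone-based entry AC008079.2 fell by 1.53 (log2, SE 0.29), but it has no RefSeq position and so no neighbours to be set against.

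Several of the higher entries with small p-values are clone-based and have no RefSeq position. FP236383.3 had normalised counts of 223, 189 and 160 at d0 and 364, 370 and 249 at d3, a log2 fold change of 0.78 (SE 0.12, adjusted p = 2.4e-06 from edgeR), and FP671120.4, FP671120.3 and FP236383.2 rose by 0.77, 0.62 and 0.56. Reads may be split among near-identical copies there, and these entries are uncertain as single loci. AC010619.2 rose from 115 ± 5.56 to 189 ± 9.40 (SD, n = 3 each), by 0.72 (log2, SE 0.13). In Mock cells all 5 entries stood above d3, at 421 to 475 for the FP entries and 478 ± 21.1 (SD, n = 3) for AC010619.2. FP236383.2 lost its call without d0 replicate 2 (adjusted p = 0.178). With DESeq2, FP671120.4, FP671120.3 and FP236383.2 were not called (adjusted p of 0.051, 0.120 and 0.193).

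The d28 and Mock samples share none with d0 or d3. The d28 mean lay above the Mock mean in 96 of the 136 higher genes (70.6%), in 29 of the 138 lower genes (21%) and in 49.8% of all tested genes. In the higher genes the median log2 ratio of d28 to Mock was 0.23, in the lower genes -0.31. Counted against both groups of the main comparison, the Mock mean lay between d0 and d3 in 107 higher and 109 lower genes, and beyond d3 in 17 and 12. The d28 mean lay between d0 and d3 in 111 and 97, and beyond d3 in 24 and 40.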

How the data were processed

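ATAC-Seq libraries were made from isolated nuclei. The authors deposited whole-number counts of reads per gene entry without normalization, and the submitters' processing notes name bcl2fastq, Bowtie2, HTSeq and GRCh38. Versions, the interval counted per gene, read shift, strand and duplicate removal are not given in the sources used here, and without strand an antisense gene cannot be told from its partner. The labels also mention RNA purification. Groups and biological replicates came from the labels. How replicate cultures were kept is not stated, so p-values may measure technical spread. The members and gene lists were chosen with earlier results of these data known.

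The test was run with edgeR 4.0.16 under R 4.3.3 (TMM factors, quasi-likelihood F test, Benjamini-Hochberg over all genes or blocks). A standard error is the log2 fold change divided by the square root of F. DESeq2 1.42.0 was an alternative. The procedure was tested on simulated data. Symbols of 33244 entries matched RefSeq directly and 1132 by a synonym. Replicates differed by more than sampling noise (chi-square per degree of freedom from 1.05 to 1.28), and each was counted. Depth ranged from 325159 to 613949 nuclear counts, and a floor of 3 counts was 4.89e-04% to 9.23e-04% of a sample. Named genes were the 12 called genes of smallest p in each direction whose groups did not overlap, the 3 of smallest p in each direction with a mean raw count of 50 or more and a symbol that is not clone-based, KMT2A, AFF1, and from each list the called genes or, with none, the gene of smallest p. Alternatives were other scalings, filters, thinning, a replicate block, all 12 samples and leaving out samples. The test against 50 neighbours was chosen after seeing the data.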

Additional observations from a re-analysis of the deposited data

How the results depend on the processing

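For genes called higher and lower (136 and 138), scaling, the fit to all 12 samples, stricter filters and kept mitochondrial sequences left the counts within 1.5-fold. DESeq2 gave 13 and 23, with adjusted p-values for 1527 genes and 1015 genes at an unadjusted p below 0.05. Thinning to the lowest total gave 47 and 47, no filter on low counts 238 and 44, and the test against neighbours, chosen after seeing the data, 18 and 33. Leaving out 1 sample gave 34 to 113 higher and 39 to 147 lower genes. Blocks of 25 genes gave 129 higher and 159 lower blocks, in a larger number of blocks, and leaving out 1 sample gave 60 to 69 and 84 to 97. With the replicate block, 127 higher and 133 lower genes and 69 and 97 blocks were called. Same-numbered samples did not deviate together (correlations from -0.037 to -0.0019 over 8410 genes) and no sample correlated best with its own number, so the numbers do not pair the samples. CD34, which was not called, changed sign to 0.018 without a filter and to 0.21 against neighbours. The cause of these differences was not tested, apart from fewer reads with thinning and fewer samples when 1 was left out. With library sizes only, the median of all genes was 0.020 against -0.0053.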

Other observations

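The next 4 genes were called both in the main comparison and against their neighbours and were chosen after their values were seen. SLITRK1, which shapes synapses and neurites, had normalised counts of 37.2, 13.2 and 18.7 at d0 and 6.07, 9.30 and 6.999 at d3, a log2 fold change of -1.65 (SE 0.35, adjusted p = 0.0014 from edgeR). Its relative SLITRK3 fell by 1.48 (log2, SE 0.34), and FLRT3, another leucine-rich repeat protein of the membrane, fell by 1.64 (log2, SE 0.36). SLITRK1 and FLRT3 passed the count minimum only through d0, with a mean raw count under 10 at d3. SPOCK3, a proteoglycan of the brain's matrix, had 34.6, 36.6 and 34.7 at d0 and 12.9, 14.4 and 14.8 at d3. The d3 samples lay below the d0 samples in all 4 genes. SPOCK3 kept its call with each sample left out, whereas SLITRK1 and SLITRK3 lost it without d0 replicate 1 (adjusted p of 0.234 and 0.067) and FLRT3 without d0 replicate 2 or 3 (up to 0.075). In Mock cells SPOCK3 was at 16.8, SLITRK3 at 13.6 and FLRT3 at 12.4, nearer to the d3 mean than to the d0 mean, whereas SLITRK1 was at 19.6, nearer to d0.

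Also chosen after their values were seen were 2 higher genes. RPL39 of the large ribosomal subunit had 14.1, 11.7 and 9.33 at d0 and 28.1, 32.1 and 24.1 at d3, a log2 fold change of 1.25 (SE 0.31). Its call was lost without d0 replicate 2 or 3 (adjusted p up to 0.086 from edgeR). RPL39 passed the count minimum only through d3, with a mean raw count under 10 at d0. GNRH1, the gonadotropin-releasing hormone gene, had 3.98 normalised counts on average at d0 and 14.3 at d3. It lies in a block of chromosome 8 that was called lower (log2 fold change -0.15), it passed the count minimum only through d3, with a mean raw count of 3 at d0, and its call was lost without d0 replicates 1, 2 or 3 or d3 replicate 2 (adjusted p up to 0.238).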
